A study of Mus musculus with 20 samples.

Results

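The genes described here are 40 genes of the hepatic stellate cell and of the collagen matrix, measured in mouse liver on Affymetrix 3' arrays. A gene was used where the platform annotation gives it a probe set that maps to 1 gene only, and where a gene had several, the one brightest on average over the 20 arrays stood for it. That left 39 of the 40 genes (Fbn1 was not used here) among 18193 named genes in all. Of the 39, 36 reached the level filter of 6.505, the median of the probe set means, and 3 lay below it (Col1a1, Timp1 and Thbs1). In all 11728 genes passed that filter. The genes fall into 7 groups by role: fibrillar collagens, other collagens, matrix glycoproteins and proteoglycans, cross-linking and turnover, contractile and filament genes, stellate and pericyte identity, and signals.

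All 20 mice were male C57BL/6J animals 8 weeks of age, and each gave 1 array of whole liver. The HFD group of 10 ate a diet with 45 kcal% fat for 4 weeks. The MSXH group of 10 received maple syrup extract at 0.05% in the same diet, and all were fasted for 16 h before the liver was taken on day 30. Groups on a low-fat diet (10 kcal%) or with 0.02% extract, which the design also names, were not analysed here. The arrays are called biological replicates in the labels.

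The values are log2 levels as deposited, and they differ very little between arrays: the median probe set had a standard deviation (SD) of 9.33e-06 over the 20 mice. Levels per mouse are therefore given in SD units from the mean of the 20 mice, and a diet difference is given as Hedges' g, the MSXH mean minus the HFD mean in units of the pooled SD. Neither is a fold change. Array medians spanned 4.37e-05, which exceeds the spread of many probe sets, so a different scaling of the arrays can turn the sign of a gene with a small spread. Hepatocyte genes were at liver levels (Alb stood at 14.74 where the highest value of all was 14.96). The level filter was passed by 9 of 9 stellate identity genes, against 11728 of 18193 named genes in all. Of 15 other stellate cell genes listed, 10 passed it.

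Stellate cells lie between the hepatocytes and the sinusoidal endothelium and store vitamin A as retinyl ester. On activation by transforming growth factor beta and platelet-derived growth factor they turn into contractile, collagen-secreting myofibroblasts, the main source of scar matrix in liver fibrosis. Collagens of types I, III and V assemble into fibrils, type IV forms the sheet of basement membranes, and type VI forms beaded filaments around cells. In whole liver RNA, fewer cells of a type and less RNA per cell cannot be told apart.

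The start regions of 4 collagen genes are shown because the correlations described further on include both pairs. Col1a2 and Col3a1, on different chromosomes, gave the highest correlation of any pair of the 36 genes. Col4a1 and Col4a2 are transcribed in opposite directions from start sites 21 bases apart, so placed that their first bases overlap. Yet their correlation was 0.204 and did not pass the test. The windows are those of RefSeq for the build GRCm38.p6, from 250 bases before the start to 50 after it, read 5′ to 3′ on the gene's own strand: chr6:4505368-4505667 (+) for Col1a2, chr1:45311288-45311587 (+) for Col3a1, chr8:11312777-11313076 (-) for Col4a1 and chr8:11312555-11312854 (+) for Col4a2. Capitals mark 4 motifs searched on both strands: TATAAA (the TATA box), CCAAT (the CCAAT box), GGAATG (the MCAT element) and CAGACA (a Smad-binding element). No capitals overlap another motif.
Col1a2: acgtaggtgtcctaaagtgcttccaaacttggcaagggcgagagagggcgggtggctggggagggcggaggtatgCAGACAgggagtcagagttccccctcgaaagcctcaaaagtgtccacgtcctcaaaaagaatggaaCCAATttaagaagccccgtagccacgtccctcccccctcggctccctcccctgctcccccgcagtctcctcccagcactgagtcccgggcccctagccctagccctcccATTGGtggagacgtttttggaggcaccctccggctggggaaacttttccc
Col3a1: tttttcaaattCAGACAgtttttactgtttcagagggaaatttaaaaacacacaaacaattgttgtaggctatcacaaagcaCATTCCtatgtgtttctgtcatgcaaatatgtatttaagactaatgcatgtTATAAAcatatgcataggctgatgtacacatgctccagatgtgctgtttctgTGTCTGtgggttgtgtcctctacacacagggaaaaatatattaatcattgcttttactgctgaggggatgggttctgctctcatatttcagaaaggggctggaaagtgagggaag
Col4a1: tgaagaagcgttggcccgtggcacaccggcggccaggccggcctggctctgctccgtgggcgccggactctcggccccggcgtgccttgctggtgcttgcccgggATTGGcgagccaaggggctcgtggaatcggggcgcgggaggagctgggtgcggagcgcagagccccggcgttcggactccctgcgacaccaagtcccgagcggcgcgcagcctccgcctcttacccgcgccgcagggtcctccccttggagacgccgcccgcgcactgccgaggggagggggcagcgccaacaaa
Col4a2: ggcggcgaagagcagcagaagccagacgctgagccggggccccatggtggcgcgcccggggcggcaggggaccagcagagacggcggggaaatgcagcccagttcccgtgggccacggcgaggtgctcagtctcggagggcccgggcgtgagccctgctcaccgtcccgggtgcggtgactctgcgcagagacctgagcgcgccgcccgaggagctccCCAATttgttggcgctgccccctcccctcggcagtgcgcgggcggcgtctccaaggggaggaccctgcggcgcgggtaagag
The Col4a1 and Col4a2 windows share 78 bases (chr8:11312777-11312854), and the CCAAT marked in each lies at a different place. CAGACA occurs once in the Col1a2 window and on both strands of the Col3a1 window, and TATAAA and GGAATG occur in the Col3a1 window only among these 4. Of 28 windows of 27 of the genes, 8 held CAGACA against 21% of 32851 mouse windows of the same length, 8 held CCAAT against 37.4%, 6 held GGAATG against 14.7% and 3 held TATAAA against 13.6%. A match describes the letters in the window and is no evidence of binding.

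None of the 36 genes passed the test of the diet difference. At an adjusted p of 0.05 limma called 0 of 11728 genes (0%), and the adjusted p was 0.9998 for each of the 36. At an unadjusted p under 0.05, 2 of the 36 were called, Rgs5 and Ngfr, both lower in MSXH, where 1.74% of all genes tested were called lower and 1.88% higher (3.62% in all). The intervals of the other 34 all included 0. The count of 2 was 1 without HFD replicate 3 or 5 or MSXH replicate 4, 6 or 9.

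The signs of the differences were uneven between the roles. On the deposited scale 26 of 36 genes (72.2%) had a higher mean in MSXH, with a median g of 0.235, against 49.4% of all genes tested and a median g of -0.00692. Among the matrix and contractile genes 22 of 24 had the higher mean in MSXH (median g 0.351), whereas 2 of 9 identity genes did (median g -0.124). These counts depend on the scaling. After shifting the arrays to the same median, 91.1% of all genes had the higher mean in MSXH (median g 0.294), and 22 of the 36 lay above that median, among them 1 of 9 identity genes. After quantile normalization 21 of 34 genes had the higher mean in MSXH, among them 15 matrix and contractile genes and 5 of 9 identity genes, against 49.4% of all genes. The counts were also taken without a pair of mice chosen after their levels were seen. MSXH replicates 8 and 9 had the highest mean standardised levels of the 36 genes. Without them 19 of 36 genes, 16 of 24 matrix and contractile genes and 0 of 9 identity genes had the higher mean in MSXH. Leaving out the highest mice of a group lowers its means, so such falls, here and for single genes below, were largely set by the choice. The identity count was 4 of 9 without HFD replicate 3 or MSXH replicate 1, 6 or 10, and 1 of 9 without HFD replicate 10.

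**Figure D1:**
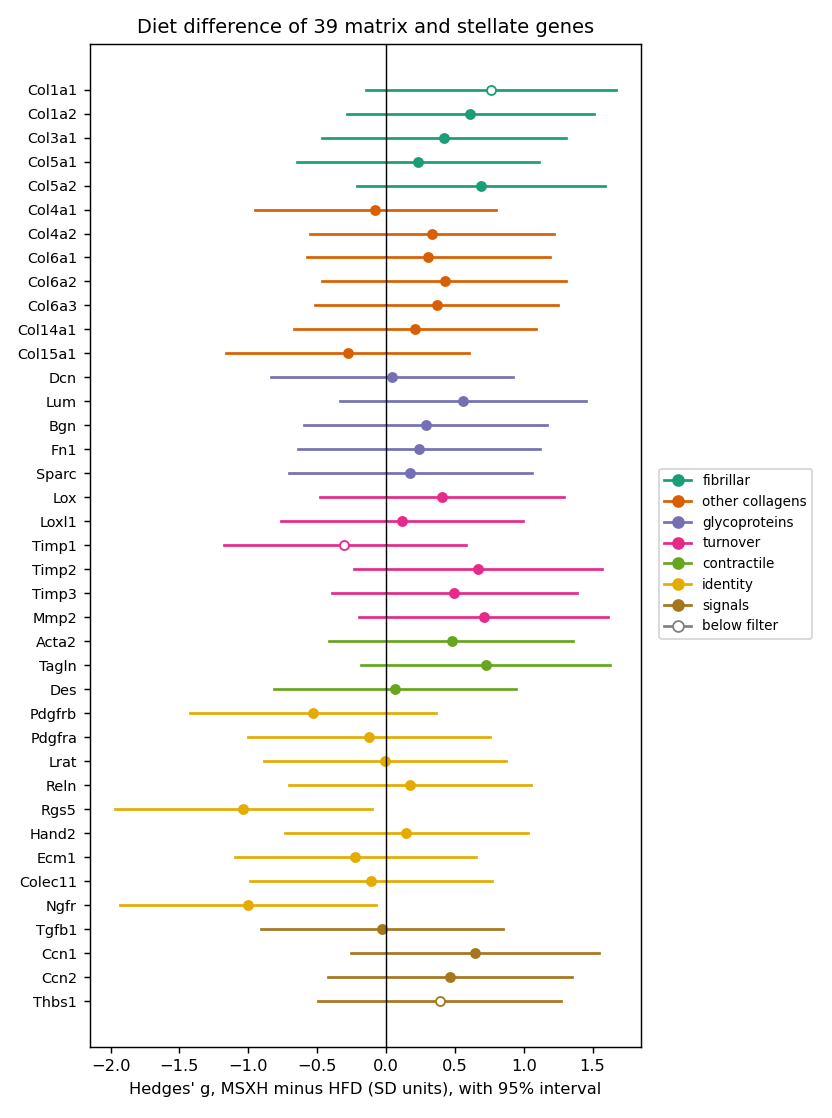
Hedges' g of the diet difference (MSXH minus HFD, in SD units, 10 mice per group) for each of the 39 genes, with its 95% interval as a line, coloured by role; open circles are the 3 genes below the level filter. Intervals of all genes but Rgs5 and Ngfr include 0, and most matrix and contractile genes lie to the right of 0 while most identity genes lie to the left.

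Fibrillar collagens had the higher mean in MSXH in 4 of 4 genes (median g 0.517). The count was also 4 of 4 after the shift to the same median, where 91.1% of all genes had the higher mean in MSXH. After the shift 4 of 4 lay above the median g of all genes. With quantile normalization the count was 4 of 4, against 49.4% of all genes. Col1a2, the second chain of type I collagen, was deposited at a mean of 8.41. Its levels ran from -1.38 to 0.88 SD in HFD (median -0.10) and from -1.28 to 2.61 SD in MSXH (median 0.14). The groups shared their low end, while MSXH replicates 8 (1.67 SD) and 9 lay above the highest HFD mouse. Replicate 9 alone was above 2 SD. Its g was 0.611 (95% interval -0.286 to 1.51, permutation p = 0.173, n = 10 per group).

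Col3a1, the chain of type III collagen, had the largest spread of the 39, with an SD of 0.0358 on the deposited scale, the 20th largest of the 11728 genes. HFD levels ran from -1.43 to 1.31 SD (median -0.36) and MSXH levels from -1.42 to 2.39 SD (median -0.10), so both groups shared their low end. The deposited means were 7.40 and 7.42, with g = 0.422 (95% interval -0.464 to 1.31, permutation p = 0.339). Its g was 0.274 without MSXH replicate 8, 0.22 without replicate 9 and -0.0208 without both.

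Col5a2, a chain of the type V collagen that sets fibril diameter, had the largest g among the fibrillar collagens tested. It ran from -1.23 to 1.09 SD in HFD (median -0.55) and from -1.14 to 2.72 SD in MSXH (median 0.08), and the HFD median was exceeded in 9 of 10 MSXH mice. The g was 0.688 (95% interval -0.214 to 1.59, permutation p = 0.126), and it was 0.34 without MSXH replicates 8 and 9. Col5a1 had g = 0.232. Col1a1, the main chain of type I collagen, was deposited at 6.37, below the filter. Its levels ran from -1.83 to 0.45 SD in HFD (median -0.26) and from -0.88 to 2.72 SD in MSXH (median 0.18), with g = 0.762 (95% interval -0.146 to 1.67, permutation p = 0.0935) and no adjusted p.

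Among the other collagens 5 of 7 genes had the higher mean in MSXH (median g 0.306), and 5 of 7 did after quantile normalization. After the shift to the same median 7 of 7 did, where 91.1% of all genes did, and 4 of 7 lay above the median g of all genes. Col6a2 and Col6a3, chains of type VI collagen, had g of 0.425 and 0.37. Col6a2 ran from -2.46 to 1.07 SD in HFD (median -0.32) and from -1.05 to 1.89 SD in MSXH (median 0.29). Col6a3 ran from -1.64 to 1.27 SD in HFD (median -0.07) and from -0.81 to 2.09 SD in MSXH (median -0.17), so its MSXH median was the lower one although its MSXH mean was the higher. The 95% intervals were -0.462 to 1.31 and -0.514 to 1.25. The g of Col6a2 was 0.218 without HFD replicate 4 and 0.263 without MSXH replicate 8. That of Col6a3 was 0.186 without MSXH replicate 8, 0.213 without MSXH replicate 9, 0.225 without HFD replicate 9 and -0.0541 without both MSXH mice. Col14a1, a fibril-associated collagen, ran from -1.75 to 0.83 SD in HFD (median 0.15) and from -1.77 to 1.79 SD in MSXH (median 0.24), with g = 0.21. Without 1 array that g ran from 0.0373 (MSXH replicate 9) to 0.442 (MSXH replicate 10), and it was -0.141 without MSXH replicates 8 and 9. Col4a1 had g = -0.0777, Col4a2 had 0.333, Col6a1 had 0.306 and Col15a1 had -0.279, all with intervals that include 0.

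Glycoproteins and proteoglycans had the higher mean in MSXH in 5 of 5 genes tested (median g 0.238). After quantile normalization 3 of them still varied between arrays, and 2 of those 3 had the higher mean in MSXH. Lumican (Lum), a small proteoglycan that binds collagen fibrils, ran from -1.72 to 1.10 SD in HFD (median -0.24) and from -1.78 to 1.91 SD in MSXH (median 0.22). Its g was 0.559 (95% interval -0.334 to 1.45). Biglycan (Bgn), of the same family, ran from -1.69 to 1.15 SD in HFD (median -0.25) and from -1.28 to 2.06 SD in MSXH (median 0.28), with g = 0.288 (95% interval -0.593 to 1.17). In both genes the groups overlapped and the highest mouse was MSXH replicate 8. The g of Bgn was 0.0967 without that mouse, 0.133 without HFD replicate 9, 0.153 without HFD replicate 10 and -0.0707 without MSXH replicates 8 and 9. Without MSXH replicate 10 the g of Lum was 0.891. Fn1 (fibronectin), Sparc, a collagen-binding glycoprotein, and Dcn (decorin) had g of 0.238, 0.177 and 0.043.

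The cross-linking and turnover genes had the higher mean in MSXH in 5 of 5 genes tested (median g 0.496), but in 2 of 5 after quantile normalization. Mmp2, a gelatinase, ran from -1.59 to 1.05 SD in HFD (median -0.68) and from -0.70 to 1.93 SD in MSXH (median 0.02). Timp2, a metalloproteinase inhibitor that also takes part in activating Mmp2, ran from -1.81 to 1.30 SD in HFD (median -0.43) and from -1.16 to 1.46 SD in MSXH (median 0.23). In each, 9 of 10 MSXH mice exceeded the HFD median while the ranges overlapped. The g of Mmp2 was 0.709 (95% interval -0.195 to 1.61, permutation p = 0.114) and that of Timp2 was 0.669 (95% interval -0.232 to 1.57, permutation p = 0.133). After quantile normalization they were 0.0946 and 0.58. All 6 probe sets of Timp2 and both of Mmp2 gave a positive g.

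Timp1, the inhibitor best known from fibrotic liver, was below the filter. It ran from -1.55 to 1.63 SD in HFD (median 0.37) and from -2.59 to 0.94 SD in MSXH (median 0.07), with g = -0.303 (95% interval -1.18 to 0.579). Its low MSXH end was replicate 10 alone. Lox and Loxl1, which cross-link collagen and elastin, had g of 0.405 and 0.115, and Timp3 had 0.496.

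Contractile and filament genes had the higher mean in MSXH in 3 of 3 (median g 0.476), and in 2 of 3 after quantile normalization. Tagln (transgelin), an actin-binding protein of contractile cells, had the largest g of the 36 genes at 0.726 (95% interval -0.179 to 1.63, permutation p = 0.107), but it was -0.100 after quantile normalization. It ran from -1.71 to 1.09 SD in HFD (median -0.37) and from -1.0 to 1.70 SD in MSXH (median 0.46). Acta2, the smooth muscle actin used as the marker of activated stellate cells, ran from -1.13 to 0.78 SD in HFD (median -0.27) and from -1.09 to 2.34 SD in MSXH (median -0.11). Its g was 0.476 (95% interval -0.413 to 1.36, permutation p = 0.281), and 5 of 10 MSXH mice exceeded the HFD median. Without MSXH replicate 8 the g was 0.286. The intermediate filament gene Des had g = 0.0662. Of 8 vascular smooth muscle markers, which share these genes' contractile role, 2 passed the filter, with a median g of 0.418. Their part in the contractile values was not tested.

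In the identity group both genes called at an unadjusted p lay lower in MSXH. Rgs5, a G-protein signalling regulator of pericytes, was deposited at 9.66. It ran from -0.70 to 2.08 SD in HFD (median 0.33) and from -2.19 to 0.45 SD in MSXH (median -0.16), and 1 of 10 MSXH mice exceeded the HFD median. The g was -1.04 (95% interval -1.97 to -0.102, unadjusted limma p = 0.0238, permutation p = 0.0258, limma adjusted p = 0.9998). The 4 probe sets of Rgs5 all gave a negative g, from -1.12 to -0.521. The unadjusted call was lost with the same median (g = -0.765, limma p = 0.0798), with quantiles (g = -0.525, limma p = 0.226), with the probe set of largest SD (limma p = 0.231) and with a Wilcoxon test (p = 0.0753).

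Ngfr, a neurotrophin receptor carried by stellate cells, ran from -0.80 to 2.27 SD in HFD (median 0.30) and from -1.70 to 0.74 SD in MSXH (median -0.53). The g was -1.0 (95% interval -1.93 to -0.0699, unadjusted limma p = 0.0303, permutation p = 0.0303), and 2 of 10 MSXH mice exceeded the HFD median. Its SD on the deposited scale was 9.5e-06, and the sign turned after both rescalings, to 0.153 with the same median and 0.147 with quantiles. Its other probe sets, both below the filter, had g of -0.106 and -0.12.

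Pdgfrb, the receptor for platelet-derived growth factor B on stellate cells, had a narrow HFD range of -0.42 to 0.91 SD (median 0.30) and a wide MSXH range of -1.94 to 2.01 SD (median -0.85). Its g was -0.531 (95% interval -1.42 to 0.361), and -0.92 without MSXH replicate 8 or -0.798 without replicate 3. A second probe set of Pdgfrb, also above the filter, had g = 0.375 and correlated with the first at r = 0.367, so its direction is not settled. Lrat, which makes the retinyl ester that stellate cells store, ran from -1.03 to 1.77 SD in HFD (median -0.35) and from -1.24 to 1.84 SD in MSXH (median -0.09). The g of Lrat was -0.00733, with a 95% interval from -0.884 to 0.869. The remaining genes, Pdgfra, Reln, Hand2, Ecm1 and Colec11, had g between -0.222 and 0.174.

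Among the signals, 2 of 3 genes tested had the higher mean in MSXH (median g 0.467), and 1 of 3 did after quantile normalization. After the shift 3 of 3 did, where 91.1% of all genes did, and 2 of 3 lay above the median g of all genes. Ccn1 and Ccn2 encode matricellular proteins, and Ccn2 (connective tissue growth factor) is a known target of transforming growth factor beta and of YAP. Ccn1 ran from -2.28 to 0.40 SD in HFD (median -0.03) and from -1.29 to 2.02 SD in MSXH (median 0.27), with g = 0.647 (95% interval -0.252 to 1.55), which was -0.153 after quantile normalization. Ccn2 ran from -2.66 to 1.09 SD in HFD (median 0.04) and from -1.01 to 1.90 SD in MSXH (median 0.33), with g = 0.467 (95% interval -0.422 to 1.35), and 0.253 without HFD replicate 5 or 0.308 without MSXH replicate 9. Ccn2 had the second largest spread of the 39, with an SD of 0.0202, the 38th largest of all genes tested.

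Tgfb1, the ligand that drives collagen expression in stellate cells, had g = -0.0288 (95% interval -0.905 to 0.848), which was 0.293 after the shift and -0.77 after quantile normalization. It ran from -1.84 to 1.06 SD in HFD (median 0.14) and from -1.83 to 1.68 SD in MSXH (median -0.18). Thbs1, an activator of latent transforming growth factor beta, lay below the filter. Among 14 tested genes of the transforming growth factor beta and platelet-derived growth factor pathways outside the 40, 0 were called at an unadjusted p under 0.05 and 11 had the higher mean in MSXH (median g 0.137), 8 of them after quantile normalization.

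**Figure D2:**
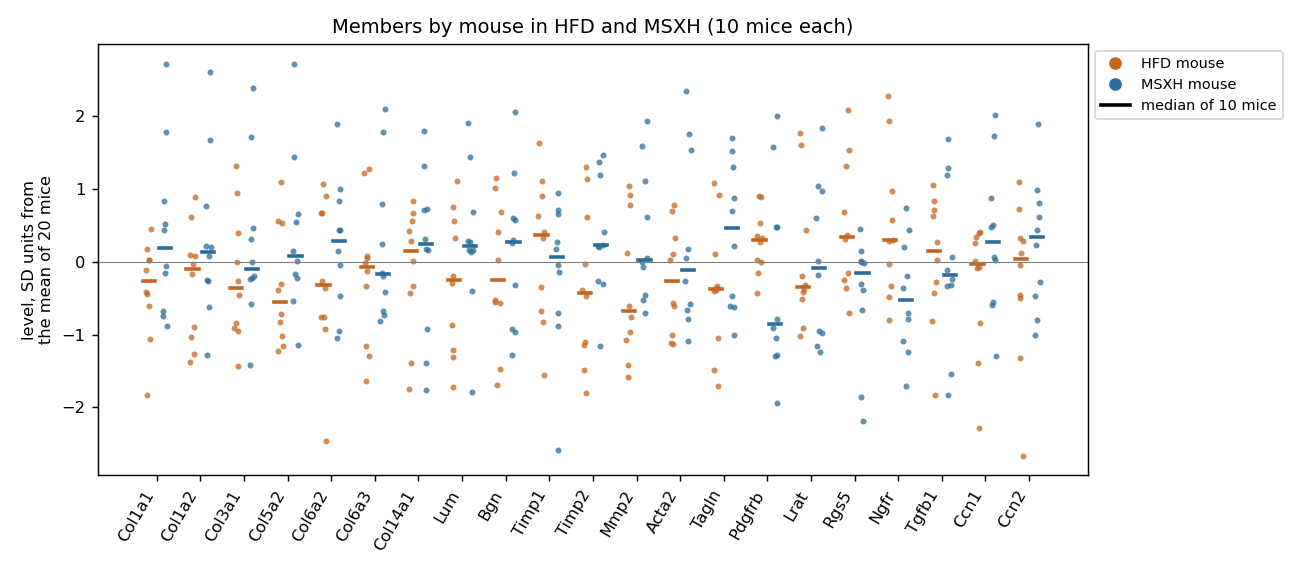
Levels of 21 named genes in each mouse, in SD units from the mean of the 20 mice, with HFD mice in orange, MSXH mice in blue and a bar at each median of 10 mice. The groups overlap in every gene, and the MSXH median lies below the HFD median in Pdgfrb (-0.85 against 0.30), Ngfr (-0.53 against 0.30) and Rgs5 (-0.16 against 0.33), and by less in Timp1, Tgfb1 and Col6a3.

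On the deposited scale the genes varied together between mice more than pairs of genes did in general, which by the median was not so after either rescaling. Over the 630 pairs of the 36 genes the median Pearson's r across the 20 mice was 0.301, and 190 pairs (30.2%) had r of at least 0.5, against a median of 0.012 and 5.05% of all pairs of the 11728 genes. Only 5 pairs were at -0.5 or below. After permutation of the mice and Benjamini-Hochberg adjustment over the 630 pairs, 168 pairs passed by r, 163 of them positive, and 140 of the 168 passed by Spearman's rho too. Each of the 168 had the same sign in both diets. As the pairs were chosen by r over these same mice, that is no separate support. Pairs share their arrays and often a gene, so they are not independent.

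The co-variation was present within each diet. Among HFD mice the median was 0.296 and 33.2% of pairs reached 0.5, against 10.9% of all pairs of genes. Among MSXH mice the median was 0.387 and 40.8% reached 0.5, against 11.1% of all pairs. The difference between the diets was not tested. The co-variation depended on the scaling. After the shift to the same median all pairs of genes had a median of 0.875 and the 36 genes 0.634, with 78.8% and 66.2% at 0.5 or more. After quantile normalization the medians were 0.123 and 0.121, with 9.33% and 12.7%. A group set after seeing the data was the 15 genes with an SD of at least 1e-04. Their 105 pairs had a median r of 0.597 as deposited, 0.595 with the same median and 0.226 with quantiles, against 0.028, 0.086 and 0.056 over all pairs of the 1548 genes with such a spread.

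Of the pairs within a role, those of the fibrillar collagens had the highest median. All 6 pairs of the 4 genes were at r of at least 0.5, with a median of 0.792 (0.778 within HFD and 0.780 within MSXH). After the shift to the same median it was 0.621, below the 0.875 of all pairs of genes. After quantile normalization it was 0.675, against 0.123 over all pairs. Their median r was 0.709 with the glycoproteins and proteoglycans, 0.637 with the other collagens, 0.366 with the contractile genes, 0.365 with the identity genes and 0.202 with the cross-linking and turnover genes. The contractile genes and the identity genes had a median r of 0.0538 with each other, and 0 of 27 such pairs reached 0.5.

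Col1a2 and Col3a1 led with r = 0.944 (Spearman's rho 0.892, permutation p = 1e-05 for both, the smallest the 100000 permutations can give, adjusted p = 0.000252 for r). The r was 0.960 within HFD, 0.938 within MSXH, 0.884 without the 2 mice farthest from the Col1a2 median and 0.919 after quantile normalization. Col3a1 reached 0.924 with Col6a3, 0.923 with Sparc and 0.922 with Lum, and Col1a2 reached 0.923 with both Col5a2 and Lum (rho from 0.865 to 0.937 in these 5 pairs). The sixth such pair, Col6a3 with Sparc, had r = 0.907 (rho 0.886). These 6 pairs and Col14a1 with Reln had the same smallest permutation p as the first, and r of 0.832 or more without the 2 farthest mice. The pairs with Sparc were at 0.509 and 0.479 after quantile normalization, and the others at 0.658 or more.

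Reln (reelin), a secreted glycoprotein that marks quiescent stellate cells in liver, correlated with Col14a1 at r = 0.928 (rho 0.946; 0.916 within HFD and 0.935 within MSXH). It also followed Lrat, at r = 0.724 (rho 0.776, adjusted permutation p = 0.0036), which was 0.764 after the shift and 0.245 after quantile normalization. The median r of Reln with the other 35 genes was 0.602. That matched Col1a2 at 0.602, and only Bgn at 0.619 and Col6a3 at 0.604 had a higher one. Its diet difference was g = 0.174 (95% interval -0.704 to 1.05).

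Subunits of 1 protein did not vary alike in every case. The 3 chains of type VI collagen, which assemble into 1 molecule, gave r of 0.837 for Col6a1 with Col6a2, 0.859 for Col6a1 with Col6a3 and 0.702 for Col6a2 with Col6a3 (rho 0.854, 0.809 and 0.779, adjusted permutation p of 0.0038 or less). Col5a1 with Col5a2 gave 0.555 (rho 0.641, adjusted permutation p = 0.0443), which was 0.426 without the 2 farthest mice. After the shift and after quantile normalization it was 0.28 and 0.267, where all pairs of genes had medians of 0.875 and 0.123. The type VI pairs, in the order above, were at 0.94, 0.773 and 0.669 after the shift. After quantile normalization they were at 0.641, 0.829 and 0.385. Col4a1 with Col4a2, the pair that shares a start region, gave 0.204 (rho 0.236, permutation p = 0.391), with -0.0778 within HFD and 0.401 within MSXH. That r was 0.730 after the shift and 0.433 after quantile normalization, and both genes had small spreads (SD 5.52e-05 and 1.46e-05). For the type I chains, Col1a1 with Col1a2 gave r = 0.842 (rho 0.681, permutation p = 1e-05) and Col1a1 with Col3a1 gave 0.819 (rho 0.729, permutation p = 2e-05). As Col1a1 was below the filter these have no adjusted p, and their r was -0.264 and -0.36 after quantile normalization.

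Other pairs set by function spread widely. Acta2 and Tagln, both of contractile cells, had r = 0.705 (rho 0.722, adjusted permutation p = 0.00306), and Dcn with Lum had 0.691 (rho 0.702, adjusted permutation p = 0.00492). After the shift these were 0.645 and 0.71. With quantile normalization Acta2 with Tagln was at 0.456, and Dcn with Lum had no value. Acta2 with Des (0.381), Ccn1 with Ccn2 (0.156) and Pdgfra with Pdgfrb (-0.0333) did not pass, with rho of 0.409, 0.186 and -0.00752 and permutation p of 0.0964, 0.509 and 0.889. Col1a1 did not pass with Lrat (0.427, rho 0.547, permutation p = 0.0584 for r) or with Acta2 (0.232, rho 0.143, permutation p = 0.323).

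**Figure D3:**
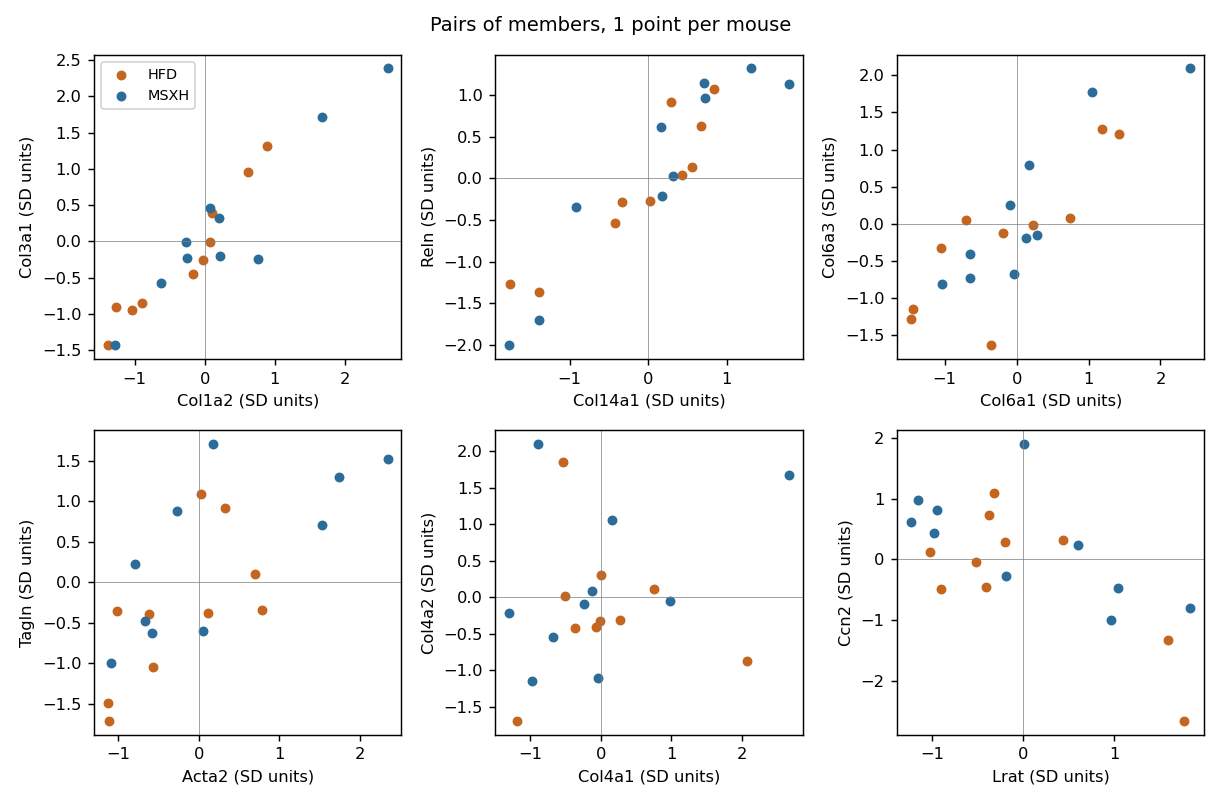
Levels of 6 pairs of genes in the 20 mice, in SD units, with HFD mice in orange and MSXH mice in blue, 1 point per mouse. Col1a2 with Col3a1 (r = 0.944), Col14a1 with Reln (0.928), Col6a1 with Col6a3 (0.859) and Acta2 with Tagln (0.705) form rising bands that hold both diets; Col4a1 with Col4a2 (0.204) does not, and Lrat with Ccn2 (-0.667) runs downward.

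The lowest correlations involved Ccn2 and Pdgfrb. Lrat with Ccn2 had r = -0.667 (rho -0.571, adjusted permutation p = 0.00691), -0.721 within HFD, -0.667 within MSXH, -0.519 without the 2 mice farthest from the Lrat median and -0.578 after quantile normalization. Ngfr with Ccn2 had r = -0.630 (rho -0.471, adjusted permutation p = 0.0169 for r and 0.123 for rho), but -0.263 without the 2 farthest mice, so it rests on those mice. That r was -0.423 after the shift and -0.143 after quantile normalization. Loxl1 with Pdgfrb had r = -0.657 (rho -0.556, adjusted permutation p = 0.00919 for r and 0.052 for rho), and its sign turned to 0.771 and 0.286 after the rescalings. Col15a1, the basement membrane-associated type XV collagen, and Ccn2 had the lowest medians with the other genes, at -0.193 and -0.178.

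**Figure D4:**
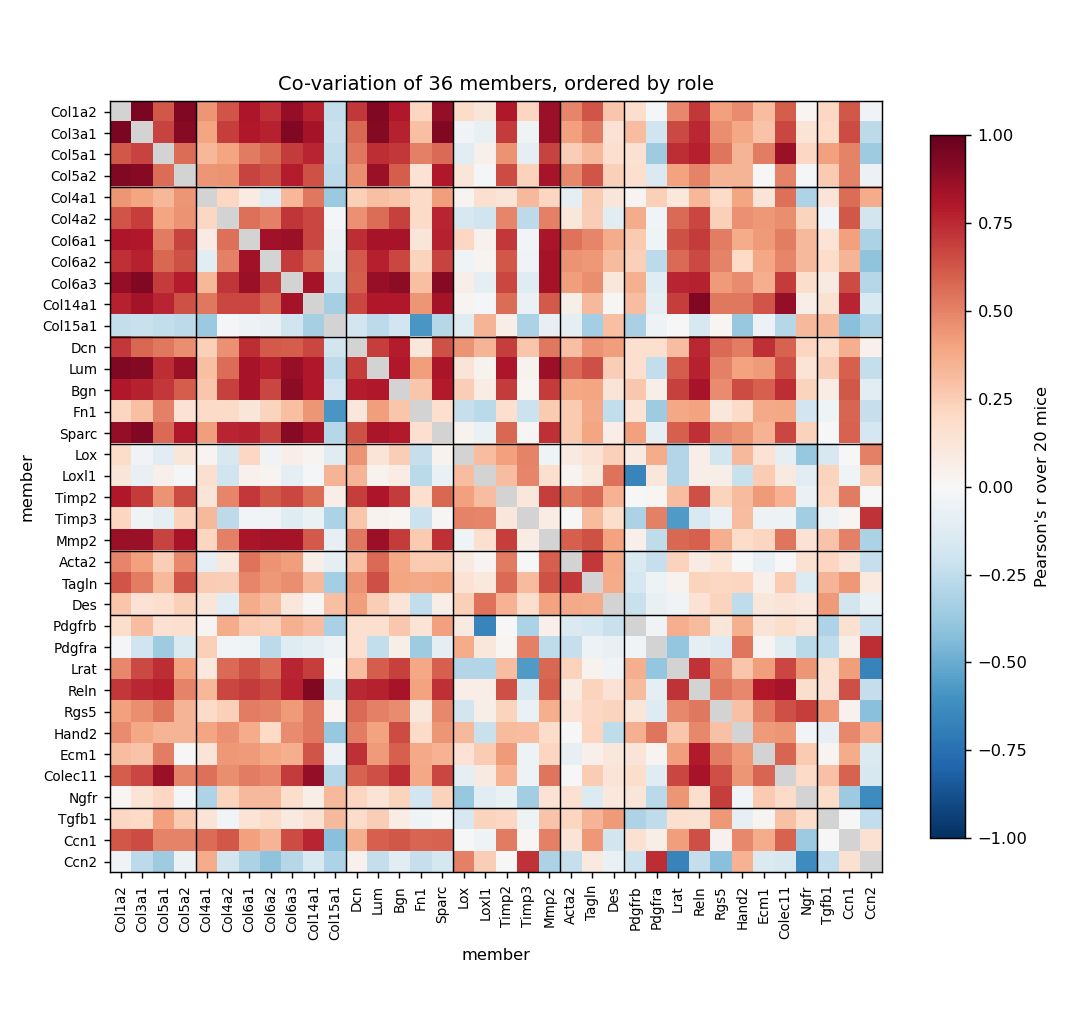
Pearson's r over the 20 mice for each pair of the 36 genes, with black lines between the roles in the order of the text; red is positive, blue negative, and the diagonal is grey. A red block joins the fibrillar collagens, the type VI and XIV collagens, Lum, Bgn, Sparc, Mmp2 and Reln, while Col15a1, Lox, Loxl1, Timp3, Pdgfra and Ccn2 stay pale or blue against it.

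The mice at the ends were only in part the same for the 2 collagen groups. The other collagens were on average lowest in HFD replicate 9 and MSXH replicate 6. They were highest in HFD replicate 5 and MSXH replicate 9. The mean standardised level of the 4 fibrillar collagens ran from -1.51 to 1.01 SD in HFD (median -0.36), with replicate 9 lowest and replicate 3 highest. In MSXH it ran from -1.47 to 2.05 SD (median 0.21), with replicate 10 lowest and replicate 9 highest, followed by replicate 8 at 1.52. Without MSXH replicates 8 and 9 the median r over the 630 pairs was 0.253, and it was 0.215 when MSXH replicate 10 and HFD replicate 9 were left out too. The fibrillar median was 0.766 and 0.642.

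On the deposited scale, markers of another cell type moved with the fibrillar collagens. The 14 Kupffer cell and macrophage markers, 14 of 14 of which passed the filter, had a median r of 0.536 with them. Of those 56 pairs 60.7% reached 0.5, against a median of 0.012 and 5.05% over all pairs of genes. Correlations with this list and the others below were not computed after the rescalings. The Kupffer list's mean standardised level ran from -0.59 to 1.12 SD in HFD and from -1.83 to 1.81 SD in MSXH, where the highest mouse was again replicate 9 but the lowest was replicate 2. The median r with the fibrillar collagens was 0.369 for 10 stellate cell genes outside the 40, 0.339 for 21 genes of matrix and collagen processing, 0.189 for portal fibroblast, 0.169 for sinusoidal endothelial, 0.105 for hepatocyte and -0.16 for bile duct markers. It was 0.128 for vascular smooth muscle and 0.096 for mesothelial markers, of which 2 genes each were tested. What part the Kupffer cells had in the collagen values was not tested.

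Those lists also give the setting of the diet signs. Of 16 endothelial markers 15 had the higher mean in MSXH (median g 0.246), 9 of 16 after quantile normalization, and of 5 portal fibroblast markers 4 did (median g 0.799), 2 of 5 after quantile normalization. Kupffer markers had it in 5 of 14 (median g -0.0892), hepatocyte markers in 5 of 13 (-0.00997), bile duct markers in 1 of 3 (-0.378) and mesothelial markers in 1 of 2 (0.14), and after quantile normalization 8 of 14, 1 of 1, 2 of 3 and 0 of 2 did. The other stellate genes split 5 of 10 (0.00185). In matrix and collagen processing 12 of 21 had the higher mean in MSXH (median g 0.178). Of these 21, 1 was called higher at an unadjusted p under 0.05, where 1.88% of all genes tested were. It was Fbln5 (fibulin-5, an elastic fibre protein), with g = 1.01 (95% interval 0.0835 to 1.95, unadjusted limma p = 0.0263, limma adjusted p = 0.9998). Its g after the rescalings is not given here.

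**Figure D5:**
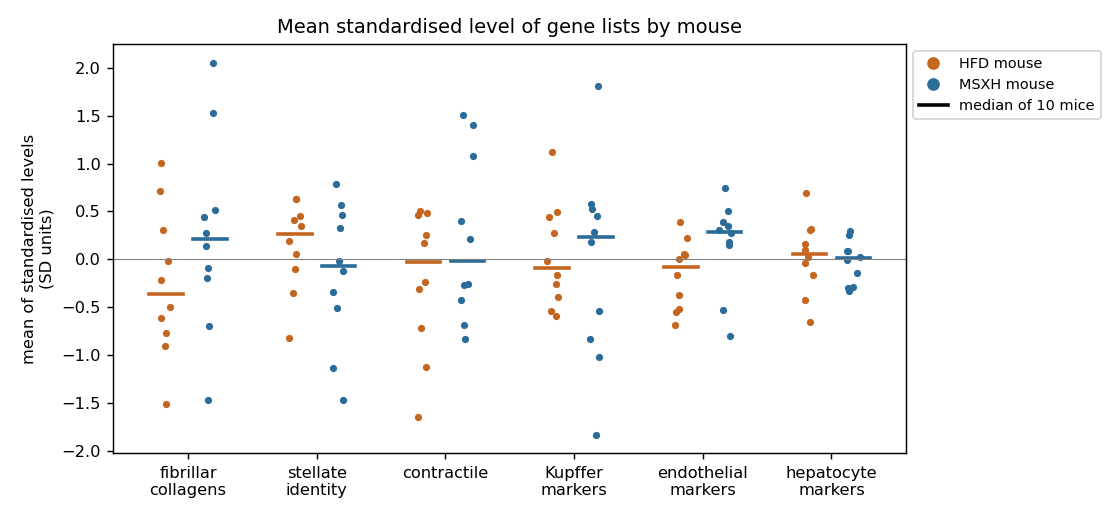
Mean standardised level per mouse, in SD units, for 3 groups of the genes (fibrillar collagens, stellate identity, contractile) and 3 lists of cell type markers, with HFD mice in orange, MSXH mice in blue and a bar at each median of 10 mice. The fibrillar collagens run to 2.05 SD in MSXH and the Kupffer markers to 1.81 SD, while hepatocyte markers stay within a narrower band.

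Probe sets of the same gene were compared because the deposited differences are so small. Of the 39 genes, 30 have more than 1 probe set. The 31 pairs of probe sets above the filter that measure 1 of the genes had a median r of 0.772 over the 20 mice, and 71% reached 0.5, against 0.424 and 42.9% of 12322 such pairs over all genes. Over all probe sets, including those below the filter, the medians were 0.367 and 0.194. For Col1a2, the further probe sets, both below the filter, followed the one used at 0.919 and -0.0851. The 3 further ones of Rgs5 followed the one used at 0.891, 0.876 and 0.519, and those of Tgfb1 and Dcn were at 0.0306 and 0.0366.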

How the data were processed

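The authors hybridised RNA of 20 livers, 1 array per mouse, after a 3' IVT labelling of 200 ng total RNA per the labels' protocols. The table deposited by the authors holds 45101 probe sets, and its values were read as log2 because they run from 5.2 to 14.96. How background, normalization and summary of probes were done is not given in the sources used here. The 64 control probe sets were left out. Of the others, 34945 map to 1 gene, 932 to several and 9160 to none, and 0 pairs of arrays were identical. Signal over background is not known, so precision is set by how many arrays there are.

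The diet comparison used limma (version 3.58.1, R 4.3.3) with lmFit and eBayes, adjusted by Benjamini-Hochberg over 11728 genes, and the code was tested on simulated data. Single genes and correlations were tested with two-sided permutations (100000 draws). Python 3.11.15 and matplotlib 3.10.9 made the figures. The genes and lists were chosen with earlier results of these data known. Named were genes at an unadjusted p under 0.05, the 2 with the largest g in each role, the 6 with the largest SD, a fixed set of key genes, the 8 highest and 3 lowest correlations and 17 fixed pairs. Alternatives covered scaling, filter, probe set, variance model, array weights, replicate block, Wilcoxon test and left-out arrays. Start regions were matched by symbol, and 27 of the 40 genes had one.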

Additional observations from a re-analysis of the deposited data

Results flagged for a closer look

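Timp1 in MSXH had 1 mouse apart from the others: replicate 10 was the lowest, and its gap to the next mouse was 0.482 of the group's range, above the limit of Dixon's test for 10 mice. Of 42 sets of 10 values examined this was 1, where chance alone gives about 5%, or 2.1 sets.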

How the results depend on the processing

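No gene was called at an adjusted p of 0.05 in any of the 11 alternatives or 20 fits without 1 array, where the smallest adjusted p was 0.0765. Genes at an unadjusted p under 0.05 numbered 46 of 11728 after the shift to equal medians and 126 of 11212 after quantile normalization. They were 780 of 18193 unfiltered, 197 of 6941 above the 75th percentile and 704 of 19410 when each probe set stood alone. With the probe set of largest SD they were 357 of 10423, with the Wilcoxon test 399 of 11728, and without 1 array 318 to 598 of 11728. Of the genes described, those so called were 0 of 36 with the shift, 1 of 34 with quantiles (Col15a1, named after its value was seen), 1 of 17 above the 75th percentile (Rgs5), 4 of 58 probe sets taken alone (2 of Rgs5, 1 each of Ngfr and Timp3), 0 of 29 with the probe set of largest SD, 0 of 36 with the Wilcoxon test, and 1 to 3 of 36 without 1 array. Higher in MSXH were 13 of 17 above the 75th percentile and 42 of 58 probe sets, and 24 to 30 of 36 without 1 array. Of matrix and contractile genes it was 11 of 12 and 36 of 40, and 19 to 23 of 24. The share over all genes was not counted in these settings. Of identity genes it was 6 of 9 with the shift, where 91.1% of all genes were higher, and 5 of 9 with quantiles. It was 1 of 4 above the 75th percentile, 4 of 15 probe sets and 4 of 8 with the largest SD. Without MSXH replicates 8 and 9 it was 0 of 9, and 1 of 9 without 4 mice (these, MSXH replicate 10 and HFD replicate 9). Without 1 array it ran from 1 to 4 of 9. Signs turned for Ngfr (0.153 with the shift, 0.147 with quantiles), Tagln (-0.100) and Ccn1 (-0.153) with quantiles, Pdgfrb (0.219 with the shift, 0.375 with the largest SD), Lrat (0.091 with the shift, 0.106 with quantiles, 0.133 with the largest SD, and -0.215 to 0.188 without 1 array), Tgfb1 (0.293 with the shift, 0.0189 and 0.19 without 2 and 4 mice, -0.239 to 0.171 without 1 array, and -0.77 with quantiles) and Loxl1 with Pdgfrb (0.771 and 0.286); the cause was not tested. Without 2 and 4 mice they also turned for Col6a3 (-0.0541 and -0.171), Bgn (-0.0707 and -0.151) and Col14a1 (-0.141 and -0.128), and without 2 mice for Col3a1 (-0.0208). Of 19 named genes 9 kept their sign throughout. The median r over pairs was 0.387 within MSXH, 0.634 with the shift, 0.121 with quantiles, 0.365 with the largest SD, 0.215 without 4 mice and 0.260 to 0.314 without 1 array; the share at 0.5 or more was 40.8, 66.2, 12.7, 37.2 and 22.5%, and 27.8 to 31.9%, where all pairs of genes were at 78.8% with the shift and 9.33% with quantiles. Under the replicate block 0 genes were called, and 501 genes and 2 of the 36 had an unadjusted p under 0.05. Same-numbered arrays correlated from -0.133 to 0.369, 3 of 10 over 0.1, and 2 of 20 arrays had their own number as best match, so the numbers were not taken as pairs.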
